A study of Homo sapiens with 12 samples.

Results

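SVIP and the VCP machinery of endoplasmic reticulum-associated degradation (ERAD) comprised 7 listed genes of the 63677 identifiers in the count tables: SVIP, VCP, NPLOC4, SYVN1, SEL1L, DERL1 and DERL2. SVIP was chosen by its own counts in these libraries, because it was silent in unprimed cells and read in primed cells. The other 6 genes, called partners here, were listed beside it as parts of the same machinery. All 7 passed the filter on low counts, SVIP through its primed libraries alone.

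RNA-seq was performed on MiaPaca2 cells, an established human pancreatic ductal adenocarcinoma line, in 4 groups of 3 libraries, all collected after 24 h. The Con group received the DMSO vehicle. The CPT group received 1 µM calcipotriol, a vitamin D analogue. The GTA+5-Aza group received 2 mM glyceryl triacetate, a source of acetate for histone acetylation, with 1 µM 5-Aza-2′-deoxycytidine, an inhibitor of DNA methylation, and the CPT+GTA+5-Aza group received all 3 agents. Groups with GTA+5-Aza are called primed (6 libraries) and groups without it unprimed (6 libraries). GTA and 5-Aza were given only together, so their separate parts cannot be told apart, and the labels number the libraries without saying that they came from separate cultures. The study describes 3 independent samples for each experiment and does not say whether these were separate cultures. If the libraries did not come from separate cultures, p-values measure technical spread only. The genotype of the cells is labelled WT, and the design holds 1 line.

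Misfolded proteins of the endoplasmic reticulum are recognised, carried across its membrane, ubiquitinated and handed to the proteasome. SYVN1 (HRD1) is the ubiquitin ligase of this route and SEL1L the membrane adaptor that holds its complex together. The derlins DERL1 and DERL2 are membrane proteins of the export step. VCP (p97) is the ATPase that pulls ubiquitinated clients into the cytosol, and NPLOC4, with its partner UFD1, recruits VCP to them. SVIP is a small membrane-anchored protein that binds VCP and DERL1 and is known as an inhibitor of ERAD.

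SVIP (ENSG00000198168) lies on the minus strand at chr11:22813799-22830299 in GRCh38. RefSeq gave it 3 start sites, and the 250 bases before each of them, in windows that partly overlap, held 26 CpG dinucleotides, the sites at which DNA is methylated. That number stood at percentile 80.4 of 35116 RefSeq windows of this length, whose median was 11 CpG. The window before VCP held 23 CpG. The SVIP window at chr11:22829802-22830051 (GRCh38.p14, minus strand), with the start farthest upstream, is shown because SVIP was the member with a silent state, and the VCP window at chr9:35072626-35072875 (minus strand) because VCP was its most abundant partner. Both run 5′ to 3′ and end at the base before the start site, and capitals mark each CpG.
SVIP: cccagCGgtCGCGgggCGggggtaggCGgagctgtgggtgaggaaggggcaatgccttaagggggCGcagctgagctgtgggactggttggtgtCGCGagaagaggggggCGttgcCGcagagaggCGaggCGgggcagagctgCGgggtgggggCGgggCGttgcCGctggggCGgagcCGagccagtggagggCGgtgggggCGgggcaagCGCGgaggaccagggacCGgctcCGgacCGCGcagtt
VCP: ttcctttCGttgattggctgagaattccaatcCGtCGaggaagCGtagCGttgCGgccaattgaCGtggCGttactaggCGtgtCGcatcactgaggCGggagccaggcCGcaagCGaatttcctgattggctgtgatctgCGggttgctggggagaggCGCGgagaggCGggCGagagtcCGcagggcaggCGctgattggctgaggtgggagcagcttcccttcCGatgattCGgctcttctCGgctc

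The SVIP window shown held 5 copies of the GC box (GGGCGG, either strand), a motif present in 42.6% of all windows, and no CCAAT. The SVIP windows at chr11:22829572-22829821 and chr11:22829380-22829629 held 1 and 0 copies of the GC box, also without CCAAT. The VCP window held 5 copies of CCAAT, a motif of 32.0% of windows, and 1 TGACGTGG, the element bound by factors of the unfolded protein response, which 0.612% of windows held. The SVIP window lies inside the gene model of GENCODE, whose SVIP begins farther upstream. These matches are descriptions of letters in the windows, and DNA methylation was not measured in these libraries.

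SVIP was read in every primed library and was almost without reads in unprimed cells. The 3 Con libraries held 0, 0 and 0 SVIP counts, and the CPT libraries held 0, 1 and 0. The GTA+5-Aza libraries held 143, 146 and 127 counts, and the CPT+GTA+5-Aza libraries held 146, 97 and 106. The primed and unprimed libraries did not overlap, and the highest unprimed count was 1 against a lowest primed count of 97. These values chose SVIP and are given as a description without a test.

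As CPM, the counts divided by library totals scaled with edgeR's trimmed mean of M values (TMM), SVIP measured 7.37 ± 0.241 (SD, n = 3) in GTA+5-Aza cells and 6.57 ± 1.10 (SD, n = 3) in CPT+GTA+5-Aza cells. A count of 0 allows up to 3 counts, taken here over a group, and this limit covers counting error only. With that limit the 416 counts of the GTA+5-Aza group against 0 in Con put SVIP at least 149-fold higher. Left out in turn, each Con library lowered this bound to between 97.3-fold and 102-fold, because fewer empty libraries set it. The 349 counts of the CPT+GTA+5-Aza group against 1 in CPT gave a ratio of 375, with an exact 95% counting interval of 66.9 to 14859. Without the CPT library that held this count the group was empty and the difference was at least 80.0-fold.

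**Figure D1:**
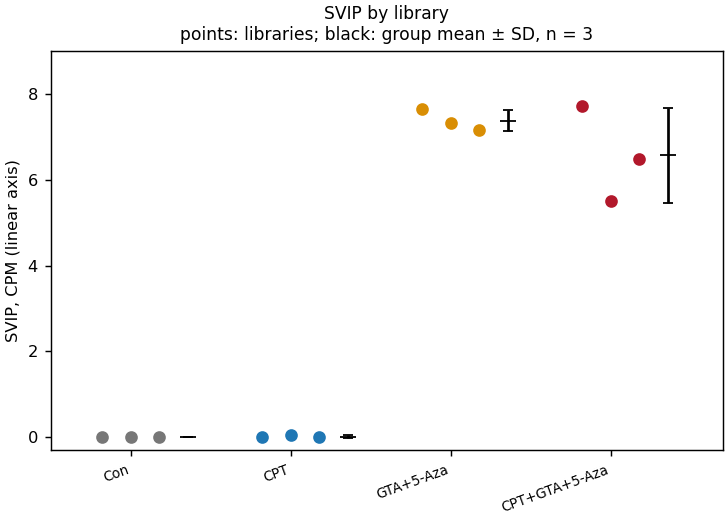
SVIP in CPM on a linear axis for each of the 12 libraries, by group, with the group mean and SD (n = 3) in black. The 6 unprimed libraries lie at or next to 0, and the 6 primed libraries lie between 5.51 and 7.71 CPM.

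No other gene of the tables had at most 1 count in every unprimed library and at least 97 in every primed library. These limits are SVIP's own highest unprimed and lowest primed count. They come from the values that chose SVIP, so this is a description and does not set SVIP apart from other genes. The genes with the most similar pattern were ranked by the root mean square difference of centred log2 CPM over the 12 libraries, among 17122 genes. The nearest of those reported here were TWIST1 (0.68), a transcription factor of mesenchymal cells, MEG3 (0.90), an imprinted long non-coding RNA, TKTL1 (0.95), a transketolase-like protein, CACNA1H (1.14), a subunit of T-type calcium channels, and DUSP10 (1.20), a phosphatase of MAP kinases. TWIST1 had 8 counts in Con replicate 2, 0 in every other unprimed library and 159 to 235 in primed libraries. MEG3 had 0 to 8 and 100 to 174 counts, and CACNA1H had 0 in every unprimed library and 16 to 39 in the primed ones. None of these genes is a member of the ERAD lists described below.

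The genes around SVIP on chromosome 11 were mostly without counts. GENCODE placed 11 genes with a start within 500 kb of the SVIP start, of which 4 had any count and 3 had 10 or more. FANCF, a gene of the Fanconi anaemia DNA repair pathway 204.5 kb away, was read in all libraries at 11.4 ± 2.03 CPM in primed and 10.6 ± 1.55 CPM in unprimed cells (SD, n = 6 each). Its log2 difference was 0.11 (SE 0.12, edgeR adjusted p = 0.547). GAS2, which overlaps the FANCF start region on the opposite strand and ends next to SVIP, had 0 counts over the unprimed and 10 over the primed libraries, too few to be tested. The long non-coding RNA ENSG00000246225 overlaps the SVIP start by 920 bases on the opposite strand and had 6 counts over the unprimed and 17 over the primed libraries. The strand setting of the counting is not given in the sources used here, so reads in the shared bases cannot be assigned to a strand.

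Among primed libraries the SVIP level varied 1.40-fold from the lowest to the highest, both in the CPT+GTA+5-Aza group. Calcipotriol in primed cells, a comparison that was not used to choose SVIP, gave a log2 difference of -0.17 (SE 0.24, 95% interval -0.67 to 0.34, edgeR adjusted p = 1). The libraries of both groups overlapped. The fit rested on 97 to 146 SVIP counts a library.

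Per kilobase of its canonical transcript, SVIP stayed the lowest member after priming. Its primed level was 1.56 ± 0.188 CPM per kb (SD, n = 6), at percentile 19.3 of the 12369 tested protein-coding genes. VCP measured 125 ± 2.37 CPM per kb in the same libraries, so the SVIP level was 1.25% of that of VCP by this length. Reads were counted per gene, and all annotated exons span 5201 bases for SVIP and 10042 for VCP. Their canonical transcripts span 4479 and 3746 bases. The ratio and the order of the partners depend on the length chosen, and levels over all exons were not computed. NPLOC4 followed VCP with 55.0 ± 2.06 CPM per kb. SYVN1 measured 12.7 ± 0.951 and DERL1 10.6 ± 0.515 CPM per kb. DERL2 and SEL1L, with 7.52 ± 0.566 and 7.51 ± 0.536 CPM per kb, did not differ beyond their spread. The order of the partners was the same in unprimed cells, where VCP stood at 136 ± 4.73 and NPLOC4 at 61.0 ± 2.66 CPM per kb and the ranges (mean ± SD) of SYVN1 and DERL1, and of DERL2 and SEL1L, overlapped.

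**Figure D2:**
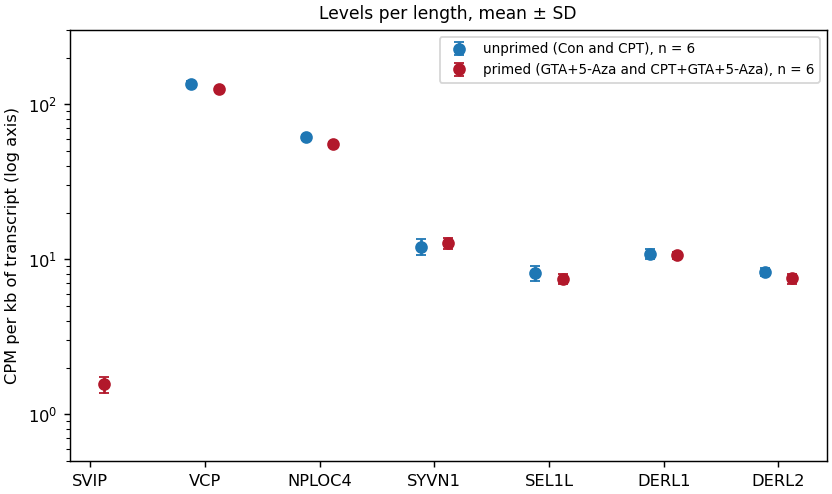
Level of each member in CPM per kb of canonical transcript on a log axis, as the mean and SD over 6 unprimed (blue) and 6 primed (red) libraries. The unprimed point of SVIP, 0.0018 CPM per kb, is below the axis and is not drawn, and the primed point of SVIP lies below those of all 6 partners.

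The comparison of primed with unprimed cells addressed whether the 6 partners listed beside SVIP moved with it. The fitted level of VCP fell by 7.82% and that of NPLOC4 fell by 9.84% in primed cells, and the other 4 partners did not pass the test. Their estimates were -9.36% for DERL2, -7.69% for SEL1L, -1.89% for DERL1 and 4.85% for SYVN1. The SE of each on the log2 scale was 0.07, against 0.03 for VCP and 0.04 for NPLOC4. The calls therefore do not separate VCP and NPLOC4 from DERL2 and SEL1L by size. Averaged over CPT, 2 of the 6 partners were called at an adjusted p under 0.05, both lower in primed cells and none higher. Of all 17123 genes tested 14.0% were called lower and 16.8% higher in this comparison. With library size alone as the scaling, 3366 genes were called higher and 1784 lower, against 2879 and 2404 with TMM.

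VCP (ENSG00000165280, chr9:35053928-35072668) measured 516, 490 and 499 CPM in Con and 498, 505 and 540 CPM in CPT. In primed cells it measured 461, 456 and 470 CPM with GTA+5-Aza and 478, 476 and 469 CPM with CPT+GTA+5-Aza. All 6 primed libraries lay below all 6 unprimed libraries, and VCP was the only one of the 6 partners without overlap. Across all genes 6.81% were lower and 8.04% higher without overlap. The mean was 468 ± 8.87 in primed against 508 ± 17.7 CPM in unprimed cells (SD, n = 6 each), a log2 difference of -0.12 (SE 0.03, 95% interval -0.19 to -0.05, edgeR adjusted p = 0.011). With library size alone the difference was -0.08 and was no longer called (edgeR adjusted p = 0.0936). Over the 17 alternatives the adjusted p of VCP ran from 0.00186 to 0.0936.

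NPLOC4 (ENSG00000182446, chr17:81556887-81648465) measured 260, 278 and 253 CPM in Con and 264, 284 and 264 CPM in CPT. It measured 242, 232 and 243 CPM in GTA+5-Aza and 237, 257 and 235 CPM in CPT+GTA+5-Aza cells. Of the primed libraries, only CPT+GTA+5-Aza replicate 2 reached the range of the unprimed ones. The means were 241 ± 9.02 and 267 ± 11.7 CPM (SD, n = 6 each), and the log2 difference was -0.15 (SE 0.04, 95% interval -0.23 to -0.06, edgeR adjusted p = 0.00638). NPLOC4 shares 11295 bases with TSPAN10 on the opposite strand, which had 0 to 18 counts a library. UFD1, named here after its value was seen because it binds NPLOC4, had a log2 difference of 0.02 (95% interval -0.09 to 0.13, adjusted p = 0.804).

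The ligase and its adaptor did not pass the test. SYVN1 (ENSG00000162298, chr11:65121780-65134532) measured 38.5 ± 2.89 CPM in primed and 36.7 ± 4.51 CPM in unprimed cells (SD, n = 6 each), a log2 difference of 0.07 (95% interval -0.08 to 0.22, edgeR adjusted p = 0.52). Its unprimed libraries ran from 32.3 to 44.3 CPM, with both ends in the CPT group. SYVN1 overlaps FAU by 398 bases on the same strand and MRPL49 by 5189 bases on the opposite strand. FAU too had its highest and lowest unprimed raw counts, 3136 and 1759, in the same 2 libraries, CPT replicates 2 and 3. MRPL49 had its highest, 1855, in CPT replicate 2 but its lowest, 1416, in Con replicate 1. CPT replicates 2 and 3 were also the replicate pair that differed most over all genes (chi-square per degree of freedom 16.6). The part of these shared bases in the SYVN1 counts was not tested. SEL1L (ENSG00000071537, chr14:81471547-81533853) measured 59.4 ± 4.24 and 64.4 ± 6.87 CPM, a log2 difference of -0.12 (95% interval -0.25 to 0.02, edgeR adjusted p = 0.197). Without CPT replicate 2, whose 53.9 CPM was the lowest unprimed value, the difference was -0.17 and passed the test (edgeR adjusted p = 0.0302). Over all alternatives its adjusted p ran from 0.0302 to 0.441.

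The derlins did not pass it either. DERL1 (ENSG00000136986, chr8:123013170-123042302) measured 34.0 ± 1.65 CPM in primed and 34.7 ± 2.48 CPM in unprimed cells (SD, n = 6 each). Its log2 difference was -0.03 (95% interval -0.17 to 0.11, edgeR adjusted p = 0.809). DERL2 (ENSG00000072849, chr17:5471254-5486811) measured 31.4 ± 2.36 and 34.6 ± 1.92 CPM, a log2 difference of -0.14 (95% interval -0.29 to 0.01, edgeR adjusted p = 0.142). The primed and unprimed libraries overlapped for both genes. Each derlin shares bases with genes on the opposite strand. DERL1 shares 17582 bases with the long non-coding RNA ENSG00000253607, which had 15 to 41 counts a library, and 335 bases with TBC1D31. DERL2 shares 527 bases with MIS12. The part of these shared bases in the counts was not tested.

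**Figure D3:**
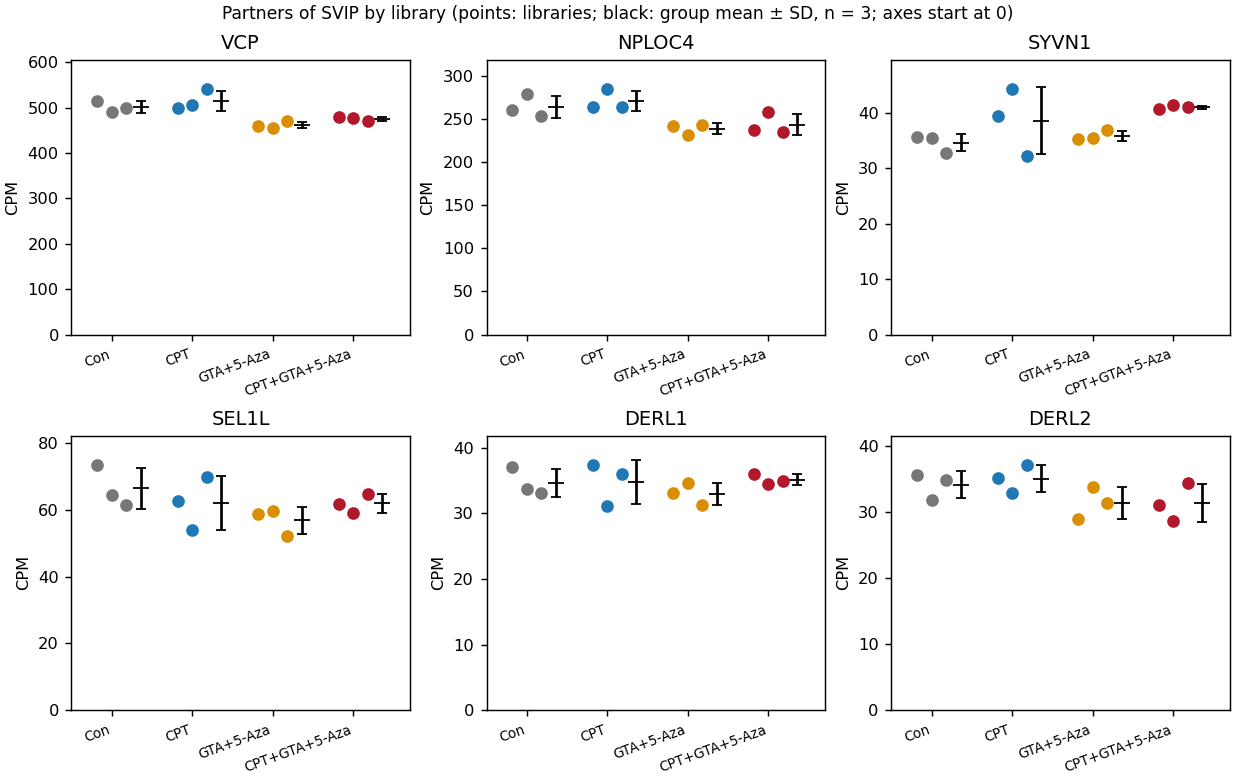
CPM of the 6 partners in each of the 12 libraries, by group, with the group mean and SD (n = 3) in black and each axis starting at 0. VCP lies lower in every primed library, from 456 to 478 CPM, than in any unprimed library, from 490 to 540 CPM, while the points of SYVN1, SEL1L, DERL1 and DERL2 overlap.

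The priming comparison was also read separately without and with CPT, from libraries that the 2 comparisons do not share. In GTA+5-Aza against Con, 0 of 6 partners were called by edgeR after adjustment, while 9.95% of all genes were called higher and 7.53% lower. An unadjusted edgeR P under 0.05 was reached by 3 of the 6 partners and by 5041 of all 17123 genes tested. With library size alone, 2013 genes were called higher and 908 lower, against 1703 and 1290 with TMM. The 3 partners were VCP (log2 difference -0.12, adjusted p = 0.0986), NPLOC4 (-0.14, adjusted p = 0.0892) and SEL1L (-0.23, adjusted p = 0.0988), all 3 lower without overlap of the 3 libraries against 3, as were 16.0% of all genes. Without CPT replicate 2, which enters this fit through the shared spread, SEL1L and NPLOC4 were called (adjusted p = 0.0406 and 0.0418), and over all alternatives their adjusted p reached 0.391 and 0.312. In CPT+GTA+5-Aza against CPT, 0 of 6 were called by edgeR and 1 by DESeq2, against 9.57% of genes called higher and 7.39% lower by edgeR. Here 2 of the 6 partners and 5013 of all 17123 genes had an unadjusted edgeR P under 0.05. With library size alone, 1986 genes were called higher and 891 lower, against 1639 and 1265 with TMM. The 2 partners were VCP (-0.12, adjusted p = 0.111) and NPLOC4 (-0.15, adjusted p = 0.0695), both lower without overlap, as were 14.4% of all genes. SEL1L differed by -0.01 there (95% interval -0.20 to 0.19). NPLOC4 was the gene that DESeq2 called (adjusted p = 0.0413), the lowest of a range that reached 0.239 over the alternatives.

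At the threshold of the study, a fold change above 1.5 with an unadjusted P under 0.05, no partner was counted in any comparison, nor was SVIP for CPT in primed cells. Of all genes this threshold counted 8.44% in GTA+5-Aza against Con, 8.67% in CPT+GTA+5-Aza against CPT and 9.60% in the average of both.

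Calcipotriol did not move any tested member past the threshold. SVIP, with 1 count over the 6 unprimed libraries, could not have passed in unprimed cells or in the interaction and is left out of both counts. In unprimed cells 0 of 6 partners were called by edgeR and none had an unadjusted P under 0.05, and the intervals of the partners' log2 differences ran from -0.29 to 0.37. Of all genes 0% were called, 733 had an unadjusted P under 0.05, DESeq2 called 4, and the threshold of the study counted 1.83%. In primed cells 0 of 7 members, SVIP included, were called and none had an unadjusted P under 0.05, with intervals of the partners from -0.21 to 0.40. Of all genes 0% were called, 464 had an unadjusted P under 0.05, DESeq2 called 1, and the threshold of the study counted 1.00%. The change of the CPT effect with priming, tested as an interaction, was called for 0 of 6 partners and for 0% of all genes, with 451 genes at an unadjusted P under 0.05 and 1.78% at the threshold of the study.

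SYVN1 was the member nearest to a response. It measured 40.8, 41.4 and 41.0 CPM in CPT+GTA+5-Aza against 35.3, 35.6 and 36.9 CPM in GTA+5-Aza cells. The 3 libraries with CPT lay above the 3 without it, as was so for 4.42% of all genes. The log2 difference was 0.19 (SE 0.10, 95% interval -0.02 to 0.40) and did not pass the test (edgeR adjusted p = 1, unadjusted p = 0.0675).

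**Figure D4:**
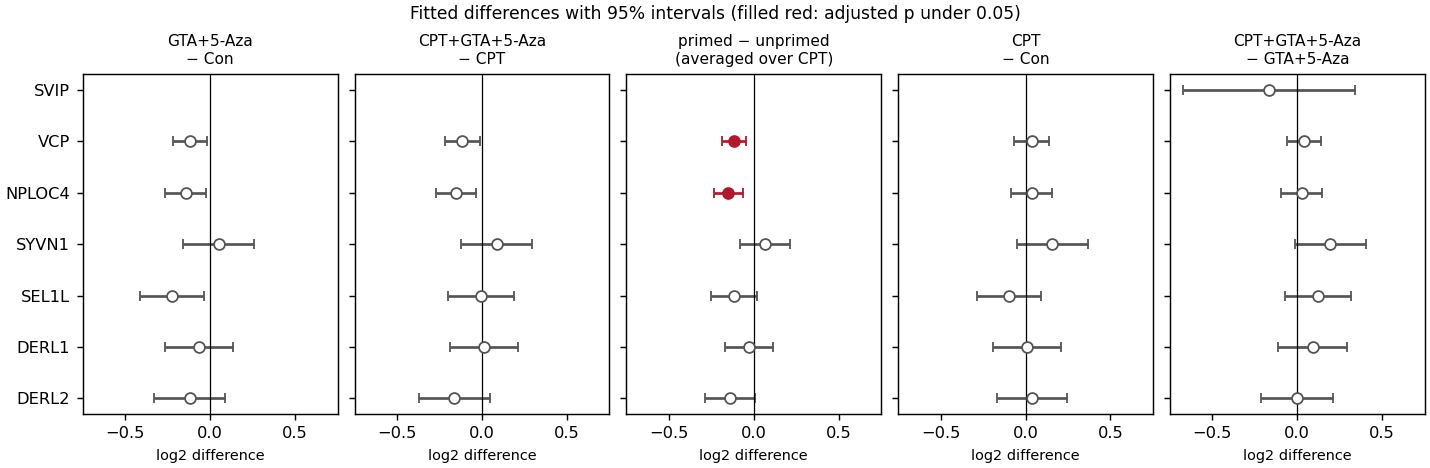
Fitted log2 differences of the members with 95% intervals in 5 comparisons, with filled red points for an adjusted p under 0.05. VCP and NPLOC4 are red in the comparison averaged over CPT, and SVIP is drawn only for CPT in primed cells. Its priming difference chose it, and its 1 count over the unprimed libraries was too few for CPT against Con.

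The wider machinery was read from 3 lists written with earlier results of these data known. They held 27 VCP cofactors and adaptors, 36 genes of ERAD recognition, ligases and membrane factors, and 28 genes of the unfolded protein response and ER chaperones. UBXN10 had no count and was not tested. In the priming comparison averaged over CPT, 7 of 26 cofactors were called, 2 higher and 5 lower, which is 26.9% of the list against 30.9% of all genes tested. The list median was -0.09 on the log2 scale against 0.01 for all genes. Of the ERAD genes 11 of 36 (30.6%) were called, 6 higher and 5 lower, with a median of 0.00. Of the unfolded protein response genes 7 of 28 (25%) were called, 3 higher and 4 lower, with a median of -0.02. These shares lie near or below that of all genes, so the genes named next are single genes of the lists and not a result about a list. Without Con replicate 1 the last count fell to 4. With library size alone the 3 lists gave 2 higher and 5 lower, 7 higher and 3 lower, and 4 higher and 2 lower. CPT in primed cells was called for 0 genes of each list by edgeR, where 1, 0 and 0 genes had an unadjusted P under 0.05.

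Among the cofactors of VCP, the called genes that were higher were both UBX-domain proteins. UBXN1, UBXN4 and UBXN7 of the same family, named after their values were seen, were not called. UBXN6 ran from 42.7 to 56.4 CPM (median 51.2) in unprimed and from 60.7 to 73.4 CPM (median 64.2) in primed libraries, without overlap and with a log2 difference of 0.35 (SE 0.07, edgeR adjusted p = 0.000176). UBXN11 differed by 0.35 (adjusted p = 0.0046), and its libraries overlapped. NGLY1, the glycanase that removes sugar chains from exported clients, fell by 0.36 (adjusted p = 0.000271). UBE4B, a ubiquitin chain elongation factor, fell by 0.32 (adjusted p = 2.74e-05), and FAF1, a further UBX-domain protein, fell by 0.25 (adjusted p = 0.000292). Each of these 3 was lower in all 6 primed libraries than in any unprimed one. VCPKMT and ASPSCR1, named after their values were seen, were also called lower, and their libraries overlapped. Their log2 differences were -0.44 (edgeR adjusted p = 0.00361) and -0.27 (edgeR adjusted p = 0.00709).

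Among the ERAD genes TMUB1, a membrane ubiquitin-like protein that binds SYVN1, had the largest difference. It ran from 41.2 to 59.2 CPM (median 43.8) in unprimed and from 60.3 to 75.6 CPM (median 67.7) in primed libraries, without overlap, a log2 difference of 0.57 (SE 0.08, edgeR adjusted p = 1.81e-06). UBL4A, a subunit of the BAG6 complex, differed by 0.28 (adjusted p = 0.000749). The mannosidase-like proteins that mark glycoproteins for export were called in both directions, with EDEM1 higher by 0.25 (adjusted p = 0.00282) and EDEM3 at a log2 difference of -0.26 (adjusted p = 0.00403). EDEM2 of the same family, named after its value was seen, was higher by 0.37 (adjusted p = 0.00543). UBE2J1, the membrane-bound ubiquitin-conjugating enzyme of the route, fell by 0.30 from a median of 95.5 to 79.8 CPM (adjusted p = 3.08e-05). ERLIN1, a scaffold of ER membrane degradation, fell by 0.20 (adjusted p = 0.000651).

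Among the unfolded protein response and chaperone genes, those named lay on both sides of 0. CANX, the membrane lectin chaperone calnexin, ran from 891 to 1033 CPM in unprimed and from 746 to 843 CPM in primed libraries, without overlap, and fell by 0.29 (SE 0.04, edgeR adjusted p = 3.94e-06). HSPA5 (BiP), the Hsp70 of the ER, fell by 0.22 (adjusted p = 0.000111) without overlap. HSP90B1 (GRP94) fell by 0.13 (adjusted p = 0.0239), a call that was lost with library size alone (adjusted p = 0.12). It was also lost when Con replicate 1 or 3, GTA+5-Aza replicate 1 or 3, or CPT+GTA+5-Aza replicate 2 or 3 was left out (adjusted p from 0.0545 to 0.0791), and its lowest adjusted p over the alternatives was 0.00172. CALR, the soluble lectin chaperone calreticulin, was higher by 0.13 (adjusted p = 0.013), lost without Con replicate 1 (adjusted p = 0.069) or CPT replicate 1 (adjusted p = 0.051), the upper end of a range that began at 0.000695. MANF, a secreted stress-induced protein of the ER, was higher by 0.30 (adjusted p = 0.0136), and TRIB3, a pseudokinase induced by ER stress and amino acid lack, by 0.37 (adjusted p = 0.00112). The sensors of the response and their main transcription factors did not pass the test and are named after their values were seen. ATF6 came nearest, with an interval of the log2 difference of -0.27 to -0.03 (adjusted p = 0.0563). The interval of the sensor ERN1 (IRE1) was -0.35 to 0.02 (adjusted p = 0.168) and that of the sensor EIF2AK3 (PERK) -0.11 to 0.30 (adjusted p = 0.512). XBP1 had an interval of -0.04 to 0.24 (adjusted p = 0.273) and ATF4 one of -0.0024 to 0.24 (adjusted p = 0.133). DDIT3 (CHOP), a target of ATF4, had one of -0.35 to 0.18 (adjusted p = 0.666).

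**Figure D5:**
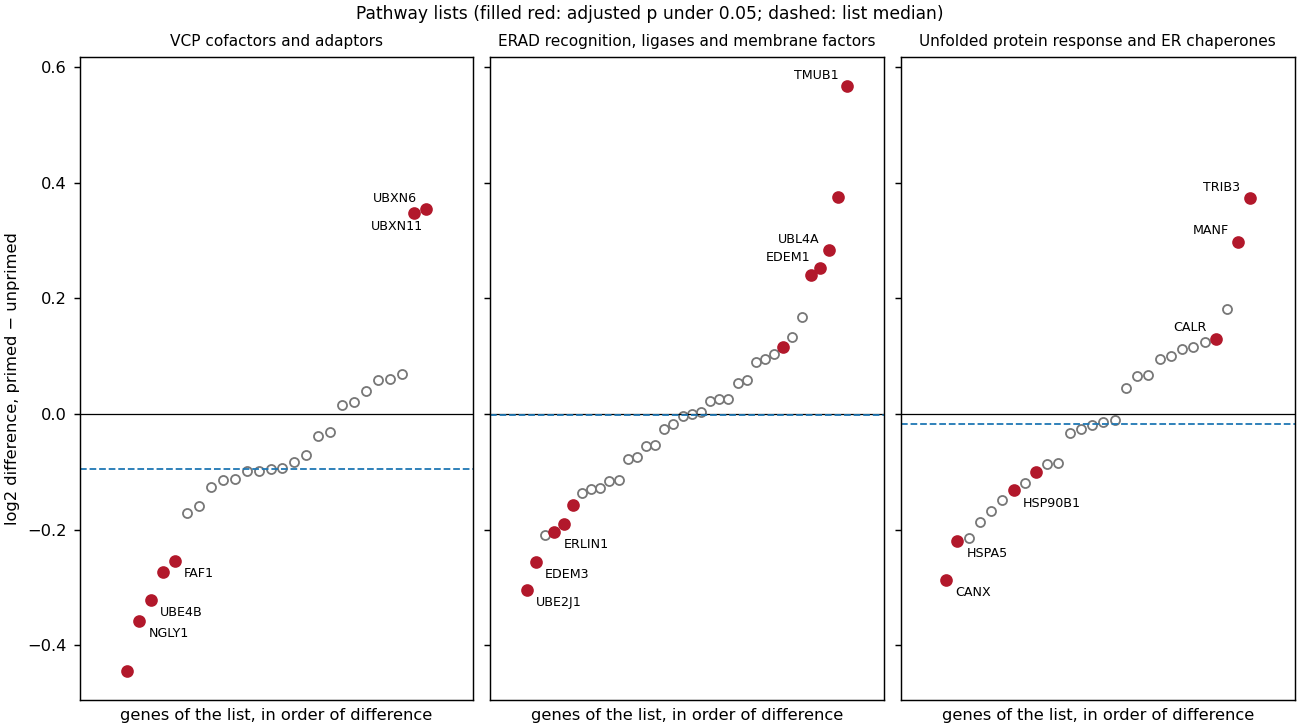
Log2 difference of primed against unprimed cells, averaged over CPT, for each tested gene of the 3 lists in order of size. Filled red points passed an adjusted p under 0.05, dashed lines mark the list medians, and labels mark the genes with the smallest p in each direction; called points lie on both sides of 0 in every list.

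Total counts ran from 16162490 to 21224665 a library. KRT8, KRT18 and VIM were read in all 12 libraries, and CDKN2A and MTAP, which MiaPaca2 cells have lost, had 0 counts in each. Of 22 markers of other pancreatic, stromal, blood and vessel cells, 12 had 0 counts throughout. The summed fibroblast markers moved with priming, from 1 to 13 counts in unprimed to 23 to 47 in primed libraries. COL1A1 had 1 to 5 against 21 to 44 counts and PDGFRB 0 to 8 against 2 to 10, while LUM was at 0 in all libraries and DCN at 2 or fewer. Their part in the SVIP result was not tested. Summed counts of the other lists were 0 to 16 in unprimed and 0 to 12 in primed libraries. In bulk RNA, a share of cells that express a gene and its level per cell cannot be told apart, which holds for SVIP in primed cells.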

How the data were processed

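The authors trimmed 150 bp paired-end reads (Trim Galore), aligned them to GRCh38 (HISAT2 2.2.1) and counted reads per gene (HTSeq), and deposited raw counts per gene without normalization. The annotation release and strand setting are not given in the sources used here. The tables held no rows that name no gene. Identifiers were matched to GENCODE 44 (52181 of 63677, 99.0% of counts), the source of positions and transcript lengths.

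Counts of all 12 libraries were fitted in edgeR 4.0.16 (R 4.3.3) with TMM scaling, filterByExpr (17123 genes) and quasi-likelihood tests, with Benjamini-Hochberg adjustment over all genes. The fit was tested on simulated data. These gave every gene the same spread and changed genes by larger folds than the partners showed, so they do not cover differences of that size. Alternatives were DESeq2 1.42.0, other scalings, no filter, a replicate block, fits of the compared groups alone and each library left out. Replicates differed by more than sampling noise (chi-square per degree of freedom 3.88 to 16.6 over 12 pairs).

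The members and lists were chosen with earlier results of these data known. Genes named were the members, the 3 higher and 3 lower called genes of each list with the smallest p, genes with at least 10 counts within 500 kb of SVIP, and the 5 nearest to SVIP in pattern; 2 RNAs among the 10 nearest are not reported. Log2 CPM used a prior count of 2, and motifs were searched on both strands.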

Additional observations from a re-analysis of the deposited data

How the results depend on the processing

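The calls of VCP and NPLOC4 in priming averaged over CPT held under every alternative, except that library size alone left 1 member called. DESeq2 called 1 member in priming with CPT. For CPT in unprimed cells, all genes called were 4 with DESeq2, 10 without the filter, 1 with the replicate block and 0 to 1 with a library left out. For CPT in primed cells they were 1 with DESeq2, 4 without the filter, 2 in the fit of those groups alone and 0 to 1 with a library left out, and for the interaction 11 without the filter. The replicate numbers did not pair the libraries (18 correlations of deviations, -0.08 to 0.12), and the block changed no call of a member. With a library left out, all genes called in priming without CPT ran from 1907 to 3648 (1907 without GTA+5-Aza replicate 3, 1983 without Con replicate 3), members called from 0 to 2 (2 without CPT replicate 2), unfolded protein response genes called in the average from 4 to 10, and the SVIP bound from 97.3-fold to 151-fold.

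Signs turned only for differences that had not passed the test. The largest of these in the TMM fit of all 12 libraries was 0.0868, for SYVN1 in priming with CPT, which was -0.0317 without CPT replicate 3. With library size alone SEL1L in priming with CPT was 0.0351 and DERL1 in the average 0.0130. With a library left out, the log2 differences in priming with CPT ran from -0.0688 to 0.0615 for DERL1, -0.106 to 0.0837 for SEL1L and -0.0317 to 0.191 for SYVN1. For CPT in unprimed cells they ran from -0.0446 to 0.0859 for DERL1, -0.00948 to 0.0850 for DERL2 and -0.00102 to 0.0593 for VCP. For CPT in primed cells they ran from -0.0720 to 0.0565 for DERL2 and -0.0174 to 0.0498 for NPLOC4. For the interaction they ran from -0.111 to 0.0175 for DERL2, -0.0531 to 0.0258 for NPLOC4, -0.0773 to 0.146 for SYVN1 and -0.0200 to 0.0403 for VCP. The cause of these changes was not tested. No fitted priming difference is given for SVIP, because its priming pattern chose it. A fit against 0 counts (Con) or 1 count (CPT) also depends on the prior count. The 97 to 146 SVIP counts a library limit its precision in primed cells.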
